A study of Rattus norvegicus with 12 samples.

Results

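The question was whether removal of macrophages (Mφs) from dispersed cervix cells went with a different change in gene expression in pregnant than in nonpregnant rats. All 12 arrays of the series entered the comparison, 3 in each of 4 groups set by the pregnancy and macrophage labels, and each array held RNA from 1 rat. The rats were adult female Sprague Dawley rats, killed on day 21 after breeding (D21) or while nonpregnant (NP) in proestrus, and all were perfused with saline before the cervix was minced and its cells were dispersed with collagenase B. In the whole groups (D21 rats 5, 6 and 7, NP rats 8, 9 and 10) the dispersed cells were frozen at once. In the Mφ-depleted groups (D21 rats 1, 2 and 4, NP rats 5, 6 and 7) the cells first went through incubation with the ED1 antibody, Dynabeads and a magnet, and the cells not held by the magnet were frozen. Whole and depleted cervix came from different rats, so the same number in 2 groups does not mark the same animal, and removal of Mφs cannot be told apart from the time and handling of the separation.

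The interaction is the difference between whole and depleted cervix in D21 rats minus the same difference in NP rats. It is negative where the whole minus depleted difference was lower in D21 than in NP rats, whether depleted cervix lost more signal in NP rats or gained more in D21 rats, and positive where that difference was higher in D21 rats. Values are log2 intensities minus the 75th percentile of the array, so that 0 is the 75th percentile of all probes of that array.

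The cervix holds smooth muscle and a stroma in which fibroblasts make collagen, proteoglycans and elastic fibres, under a lining of secretory and squamous epithelium. Before birth this matrix is remodeled, in part under relaxin and ovarian steroids, and Mφs move into the tissue. In dispersed cells of several types, fewer cells of a type and less RNA per cell cannot be told apart.

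On each array the scanner software rated 44.9% to 61.8% of probes as well above background, and 75th percentiles of intensity between 289.8 and 1170.6. They lay on 4 slides scanned on 3 days. All 3 D21 whole arrays and NP whole rat 10 shared slide 4, slide 3 held NP whole rats 8 and 9 with D21 depleted rat 4 and NP depleted rat 7, slide 1 held D21 depleted rat 2 with NP depleted rats 5 and 6, and slide 2 held D21 depleted rat 1. Csf1r, the receptor for the Mφ growth factor CSF1, had fitted whole minus depleted differences of 6.74 for D21 and 6.68 for NP cervix on the log2 scale (3.56 and 3.91 on a further probe), and Adgre1, the F4/80 antigen, was at least 37-fold and 39.6-fold lower (limma adjusted p = 7.98e-06, 2.46e-06, 1.5e-05 and 5.76e-06). Csf1r was well above background on 1 of 3 arrays of each depleted group and Adgre1 on 0. Cd68, the transcript of the ED1 antigen, did not follow the labels, with whole minus depleted differences of -0.14 for D21 and 0.55 for NP cervix (adjusted p = 0.884 and 0.539). D21 depleted rat 4 had the lowest weight of the 12 arrays when limma weighted arrays by their spread (0.181, against 4.274 for D21 whole rat 7).

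Of 14572 genes tested, the interaction was called positive for 64 (0.439%) and negative for 286 (1.96%), at a Benjamini-Hochberg adjusted p below 0.05 from limma. At the threshold of the Methods, which asks for an unadjusted p under 0.01 and a difference of 2-fold or more, applied here to p-values from limma in place of the methods' t-test, 356 genes (2.44%) were positive and 728 (5%) negative. At an unadjusted limma p below 0.05 alone, 1175 were positive and 1557 negative, and list counts at that level are to be read beside these. Called interactions ran from -5.93 to -1.27 and from 1.23 to 3.39, beside a median of -0.05 over all genes tested, with the middle 90% of genes between -2.06 and 1.49. Over all genes tested, 2286 were called lower and 2133 higher in depleted cervix of NP rats, and 1693 and 1500 in D21 rats. The called genes were picked for their interaction on these arrays, so their whole versus depleted calls are not independent of it. Among the 286 negative genes, 273 were called lower in depleted cervix of NP rats and 3 higher. In D21 rats, 83 of them were called lower in depleted cervix and 17 higher. Their median whole minus depleted differences were 3.529 in NP and 0.546 in D21 rats. Among the 64 positive genes, 61 were called higher in depleted cervix of NP rats and 0 lower, with a median difference of -1.936. In D21 rats, 7 of them were called higher in depleted cervix and 11 lower, with a median of 0.332.

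The counts depended on single rats and on the slides more than the directions did. Without D21 depleted rat 4, 1300 genes were positive and 1322 negative. Without D21 whole rat 7, 4 were positive and 99 negative. With slide as a block, 5 were positive and 50 negative, and 42 of the 350 called genes were still called. Calls of list members under these settings, given below, are to be read beside these totals over 14572 genes. All 350 had the same direction with slide as a block and without each rat in turn. They also did on the arrays of scan day 3 alone, within slides 4 and 1, and within slides 4 and 3. The genes were called from these same arrays, so an unchanged direction in part of them is not independent support. The only depleted arrays of scan day 3 were D21 rat 4 and NP rat 7. NP whole rat 10 was the only NP whole array on slide 4, and D21 depleted rat 2 the only D21 depleted array on slide 1.

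**Figure D1:**
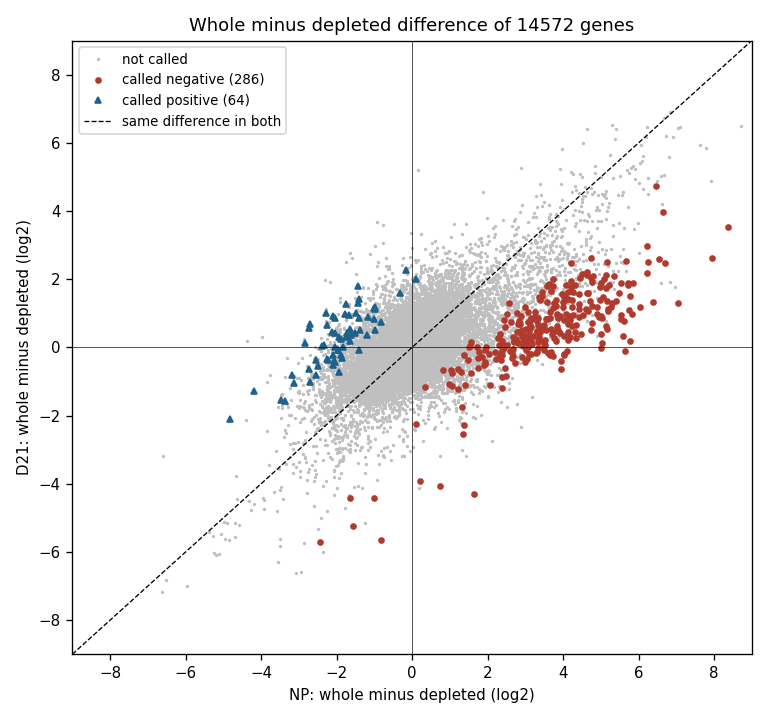
Whole minus depleted difference (log2) of 14572 genes in NP rats (horizontal axis) and in D21 rats (vertical axis), with called genes as dots (286 negative) and triangles (64 positive). Most negative genes lie far to the right and near 0 on the vertical axis, with a median of 3.529 in NP and 0.546 in D21 rats.

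One group mean stood apart for most called genes. The group whose omission left the smallest range among the other 3 means was taken as the one that drives the interaction, as a description without a test. For the negative genes it was NP depleted cervix in 203 (71%), lowest of the 4 means in each, and NP whole cervix in 68 (23.8%), highest in each. Whether such a group is lowest or highest follows from the sign of the interaction and is not a separate result. The remaining 15 were set apart by D21 whole cervix (8) or D21 depleted cervix (7). The median log2 levels of the 203 genes were 0.65 in D21 whole, -0.23 in D21 depleted, 1.25 in NP whole and -2.69 in NP depleted cervix. For the positive genes it was NP whole cervix in 48 (75%), lowest in each, with medians of -0.18, -0.40, -1.71 and 0.07 in the same order. Over all genes tested the 4 groups were set apart in 22.1%, 23.9%, 28% and 26% of genes, again in that order.

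**Figure D2:**
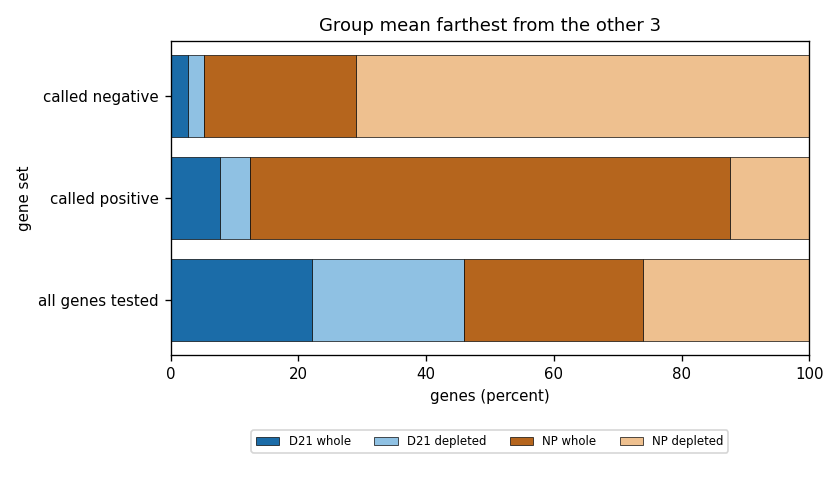
Share of genes (percent, horizontal axis) set apart by each of the 4 group means, for all genes tested, called positive and called negative genes. NP depleted cervix makes up 71% of the negative bar and NP whole cervix 75% of the positive bar, against 26% and 28% of all genes.

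Of the 350 called genes, 64 were members of at least 1 of 38 gene lists and 286 of none. Genes of fibroblasts, the matrix-forming cells of the stroma, were negative throughout. Of 16 fibroblast genes listed, 16 were tested, 16 had a negative value, 9 were called negative and 0 positive, and their median was -2.79 beside -0.05 for all genes. The list was lower in depleted cervix for 7 genes in D21 and 15 in NP rats by the same threshold, with median whole minus depleted differences of 1.19 and 4.15. Over all 14572 genes tested, 1693 and 2286 were called lower. The mean level of the list was 3.01 to 3.40 in D21 whole and 3.06 to 3.39 in NP whole rats, 1.43 to 2.01 in D21 depleted rats and -1.41 to -0.62 in NP depleted rats. Whole cervix of the D21 and NP rats overlapped, whereas depleted cervix did not, and it was lower in NP rats. The list was negative with slide as a block (median -3.15, 5 called) and without D21 depleted rat 4 (median -3.03, 10 called). Fewer were called without D21 whole rat 7 (median -2.77, 6 called) and with normexp background correction (median -2.31, 3 called).

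A first pattern was that of Pdgfra, a receptor of platelet-derived growth factor that marks fibroblasts. Its log2 level was 2.21, 1.64 and 2.04 in D21 whole, 1.05, 1.78 and 1.17 in D21 depleted, 1.87, 2.43 and 1.74 in NP whole, and -2.06, -2.27 and -2.33 in NP depleted rats. Only the NP depleted rats were apart from the other 9. The interaction was -3.60 ± 0.39 (SE), with an adjusted p of 0.00337 from limma, and -3.53 with slide as a block (adjusted p = 0.0366). Pdgfrb, the related receptor of perivascular cells and fibroblasts, had group means of 1.79 ± 0.26, 2.05 ± 0.28, 2.11 ± 0.13 and -0.56 ± 0.22 (SD, n = 3, in the same order of groups). Its interaction was -2.92 ± 0.33 (SE, adjusted p = 0.00361). Removal in D21 rats left neither receptor with a called difference (0.63 and -0.26, adjusted p = 0.121 and 0.446).

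A second pattern in the same list was a fall in both states that was larger in NP rats. Dpt encodes dermatopontin, a matrix protein that binds decorin. It was at 1.67, 1.78 and 1.50 in D21 whole, -0.45, -0.43 and 0.18 in D21 depleted, 1.76, 1.77 and 1.49 in NP whole, and -3.44, -4.06 and -4.06 in NP depleted rats, where 2 of 3 arrays were well above background. The whole groups overlapped and each depleted group lay below them. Whole minus depleted differences were 1.88 for D21 and 5.53 for NP cervix (adjusted p = 0.00112 and 6.95e-07), and the interaction was -3.65 ± 0.36 (SE, adjusted p = 0.00174). Serpinf1, a secreted factor that restrains vessel growth, followed with differences of 1.40 and 4.98 and an interaction of -3.58 ± 0.36 (SE, adjusted p = 0.00174). The remaining called fibroblast genes were Dcn, Col1a1, Col1a2, Col3a1 and Mfap5, and the 7 that were not called ran from -2.65 for Islr to -0.76 for Pi16.

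**Figure D3:**
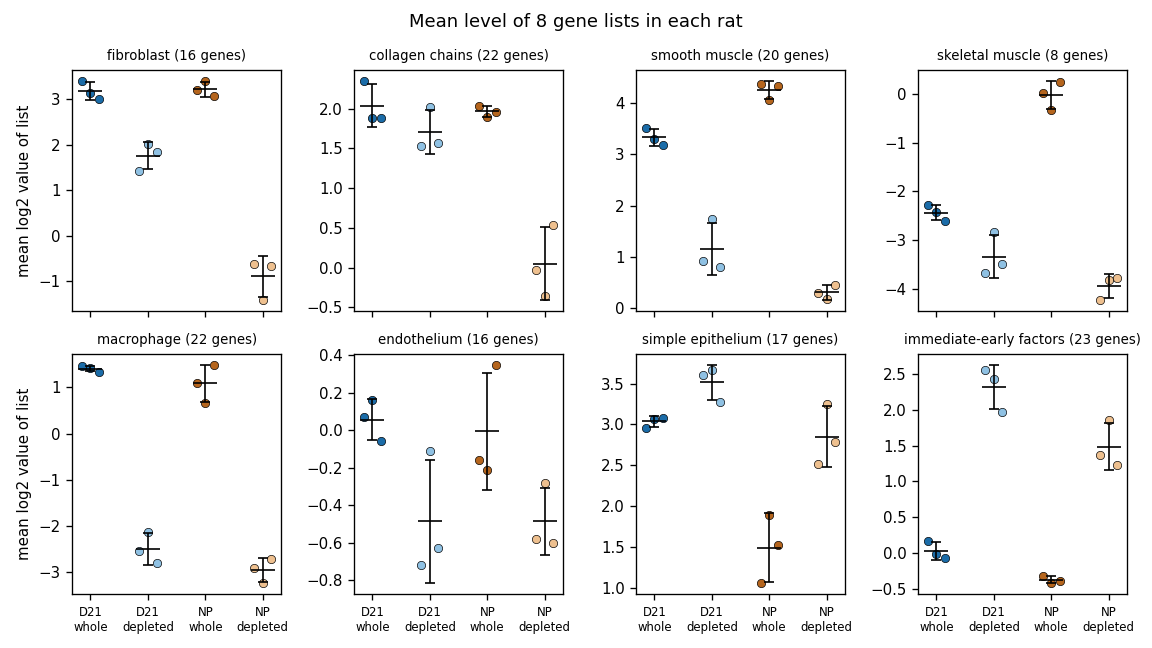
Mean log2 level of 8 gene lists in each rat (points), with the mean and SD of the 3 rats of a group (bar and whiskers). Fibroblast genes fall to between -1.41 and -0.62 in NP depleted rats, skeletal muscle genes are highest in NP whole rats, and simple epithelial genes are lowest in NP whole rats, at 1.06 to 1.90.

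Collagen genes ran in both directions. Of 35 listed, 22 were tested, 10 were called negative and 0 positive, with a median of -1.82. The called chains were Col1a1, Col1a2, Col3a1, Col5a1 and Col27a1 of fibril collagens, Col6a1 and Col6a2 of collagen VI, and Col14a1, Col15a1 and Col16a1. Other chains of collagens V and VI were not called, at -1.06 for Col5a2, -2.03 for Col5a3 and -0.50 for Col6a3. Chains of collagen IV, the sheet of basement membranes, were not called either, at -1.60 for Col4a1, 0.26 for Col4a2 and 1.26 for Col4a5, nor was Col17a1 of the epithelial hemidesmosome at 0.58. A difference between kinds of chain was not tested.

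Col5a1 was at 3.16, 2.97 and 2.68 in D21 whole, 2.32, 3.00 and 2.55 in D21 depleted, 3.74, 2.78 and 3.62 in NP whole, and -0.89, -1.57 and 0.03 in NP depleted rats. The first 3 groups overlapped and all NP depleted rats lay below them. Its interaction was -3.88 ± 0.57 (SE, adjusted p = 0.00791 from limma). Col1a1, the main chain of collagen I, had means of 7.87 ± 0.31 in D21 whole, 7.41 ± 0.37 in D21 depleted, 7.98 ± 0.06 in NP whole and 3.65 ± 1.07 in NP depleted cervix (SD, n = 3), with an interaction of -3.86 ± 0.62 (SE, adjusted p = 0.0114). A further probe of Col1a1 gave -4.69. Col6a1 had an interaction of -3.05 ± 0.48 and Col16a1 of -2.84 ± 0.41 (SE, adjusted p = 0.0104 and 0.00742). Without D21 whole rat 7, 5 chains were called. With slide as a block, the list median was -2.22 and no chain was called, with adjusted p-values of 0.0694 for Col5a1, 0.0694 for Col6a1, 0.0715 for Col16a1 and 0.101 for Col1a1.

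Proteins that dress collagen fibrils were negative as well. Of 17 small leucine-rich proteoglycans listed, 9 were tested, 9 had a negative value and 5 were called (Ogn, Dcn, Prelp, Omd and Bgn), with a median of -1.94. With slide as a block, 2 were called, Ogn and Dcn, and with normexp 1. The calls of Prelp and Omd were lost with slide as a block (adjusted p = 0.069 and 0.0617 from limma). Dcn encodes decorin, which binds collagen fibrils and limits their width. Its level was 5.92, 5.93 and 5.72 in D21 whole, 3.31, 3.86 and 4.05 in D21 depleted, 5.54, 5.75 and 5.79 in NP whole, and 1.39, 1.04 and 0.76 in NP depleted rats. Both depleted groups lay below both whole groups, and NP depleted rats were lowest. The interaction was -2.51 ± 0.36 (SE, adjusted p = 0.00707 from limma, and 0.0482 with slide as a block). Ogn, osteoglycin, had whole minus depleted differences of 2.05 (D21) and 4.73 (NP), with an interaction of -2.68 ± 0.32 (SE, adjusted p = 0.00486). Omd reached the background limit on 0 of 3 NP depleted arrays, where it was at least 14-fold lower than in NP whole cervix (adjusted p = 2.37e-05), and its interaction was -2.77 with low signals raised to the background limit (adjusted p = 0.107) in place of -4.87 (adjusted p = 0.012).

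Elastic fibre and cross-linking genes gave 5 called negative of 20 tested (22 listed), with a median of -1.91. Over the 12 members well above background on all 12 arrays, the median was -1.20 and 3 were called, and with low signals raised it was -1.50. The calls were 8 negative and 1 positive without D21 depleted rat 4, and 2 negative without D21 whole rat 7. With slide as a block 1 gene of the list was called, and with normexp 2. Mfap2, a microfibril glycoprotein, had means of 1.64 ± 0.38, 0.27 ± 0.33, 2.38 ± 0.23 and -3.01 ± 0.57 in D21 whole, D21 depleted, NP whole and NP depleted cervix (SD, n = 3), and an interaction of -4.01 ± 0.46 (SE, adjusted p = 0.00361). Its call was lost with slide as a block (adjusted p = 0.0671 from limma). Efemp2 and Mfap5, which take part in elastic fibre assembly, Emilin1 and Lox, the enzyme that starts collagen and elastin cross-links, were the others called. Eln, elastin itself, had an interaction of 0.04 (adjusted p = 0.985) and Fbn1 of -1.35 (adjusted p = 0.405).

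Among 23 metalloproteinases and inhibitors tested (41 listed), 6 were called negative and 0 positive, with a median of -0.95 (-1.73 within slides 4 and 1). Without D21 whole rat 7, 2 were called. With slide as a block 1 was called, Mmp2, and with normexp 0. Mmp2, gelatinase A, was at 5.58, 5.32 and 5.00 in D21 whole, 4.14, 4.98 and 4.31 in D21 depleted, 4.96, 4.93 and 4.44 in NP whole, and 1.31, 1.41 and 0.90 in NP depleted rats. NP depleted rats lay below all others. D21 whole rats lay above both D21 depleted and NP whole rats, which overlapped. Its interaction was -2.75 ± 0.41 (SE, adjusted p = 0.00799 from limma, and 0.0492 with slide as a block). Adamts2, which trims the ends of procollagen, Adamts7, Adamts9, Mmp16 and Mmp23 were also called. Mmp16 was below that limit on all NP depleted and D21 whole arrays, and with low signals raised its interaction was -1.08 (adjusted p = 0.507). The inhibitors Timp1, Timp2, Timp3 and Timp4 were not called, at -0.90, -0.61, 0.22 and -0.39. Ctsk, cathepsin K, a collagen-degrading protease, was the 1 called gene of 33 lysosomal genes tested, with an interaction of -4.07 ± 0.59 (SE, adjusted p = 0.00742), beside a list median of 0.07. This call was lost with slide as a block (adjusted p = 0.0852 from limma).

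Some receptors and secreted signals had called interactions. Rxfp1, the receptor of relaxin, was at 0.28, -0.09 and -0.09 in D21 whole, -0.70, 0.15 and -0.49 in D21 depleted, 2.38, 2.36 and 1.53 in NP whole, and -2.77, -2.89 and -3.07 in NP depleted rats. The D21 groups overlapped, and the NP groups lay above and below them. Here both NP groups stood off: the pregnancy difference was -2.05 in whole and 2.56 in depleted cervix (adjusted p = 0.00628 and 0.00118). The interaction of -4.61 ± 0.43 (SE) had an adjusted p of 0.00174 from limma, and 0.0198 with slide as a block. Its probe lies at chr2:171044633-171044692 (rn4).

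Gdf10, a member of the bone morphogenetic protein family, had the same shape, with means of -0.38 ± 0.10, -1.00 ± 0.49, 1.00 ± 0.39 and -4.13 ± 0.39 (SD, n = 3, D21 whole, D21 depleted, NP whole, NP depleted) and an interaction of -4.52 ± 0.44 (SE, adjusted p = 0.00174). It was 1 of 3 called negative among 37 genes of the TGF-beta and BMP pathway tested (45 listed), beside the antagonist Chrd and the activin subunit Inhba, and the list median was -0.74, or -0.43 without NP whole rat 9 and -0.39 on scan day 3 alone. The calls were 8 negative and 5 positive without D21 depleted rat 4, beside 1322 and 1300 of all 14572 genes. Without D21 whole rat 7 there was 1 negative call. The calls of Chrd and Inhba held in 4 and 3 of the 12 fits that left out 1 rat, and that of Gdf10 in 12. Of 27 Wnt pathway genes tested (47 listed), the secreted antagonists Frzb and Sfrp2 were called negative, and the list median was -0.03. Leaving out D21 depleted rat 4 gave 5 negative and 2 positive calls, beside 1322 and 1300 of all 14572 genes. Frzb was at 1.73, 1.23 and 1.57 in D21 whole, 0.79, 1.95 and 0.82 in D21 depleted, 1.13, 2.43 and 0.27 in NP whole, and -3.95, -4.59 and -4.39 in NP depleted rats, with an interaction of -5.26 ± 0.70 (SE, adjusted p = 0.00603). The first 3 groups overlapped and the NP depleted rats were lowest. Of 13 hormone receptors tested (22 listed), Rxfp1 was negative and Vdr, the vitamin D receptor, positive (2.98 ± 0.69, SE, adjusted p = 0.0481). The call of Vdr held in 2 of the 12 fits that left out 1 rat, and was lost with slide as a block (adjusted p = 0.313) and with quantile normalization. Leaving out D21 depleted rat 4 gave 3 calls in each direction. The estrogen receptor Esr1 was at 1.86 and the progesterone receptor Pgr at -0.79, with adjusted p-values of 0.11 and 0.681.

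**Figure D4:**
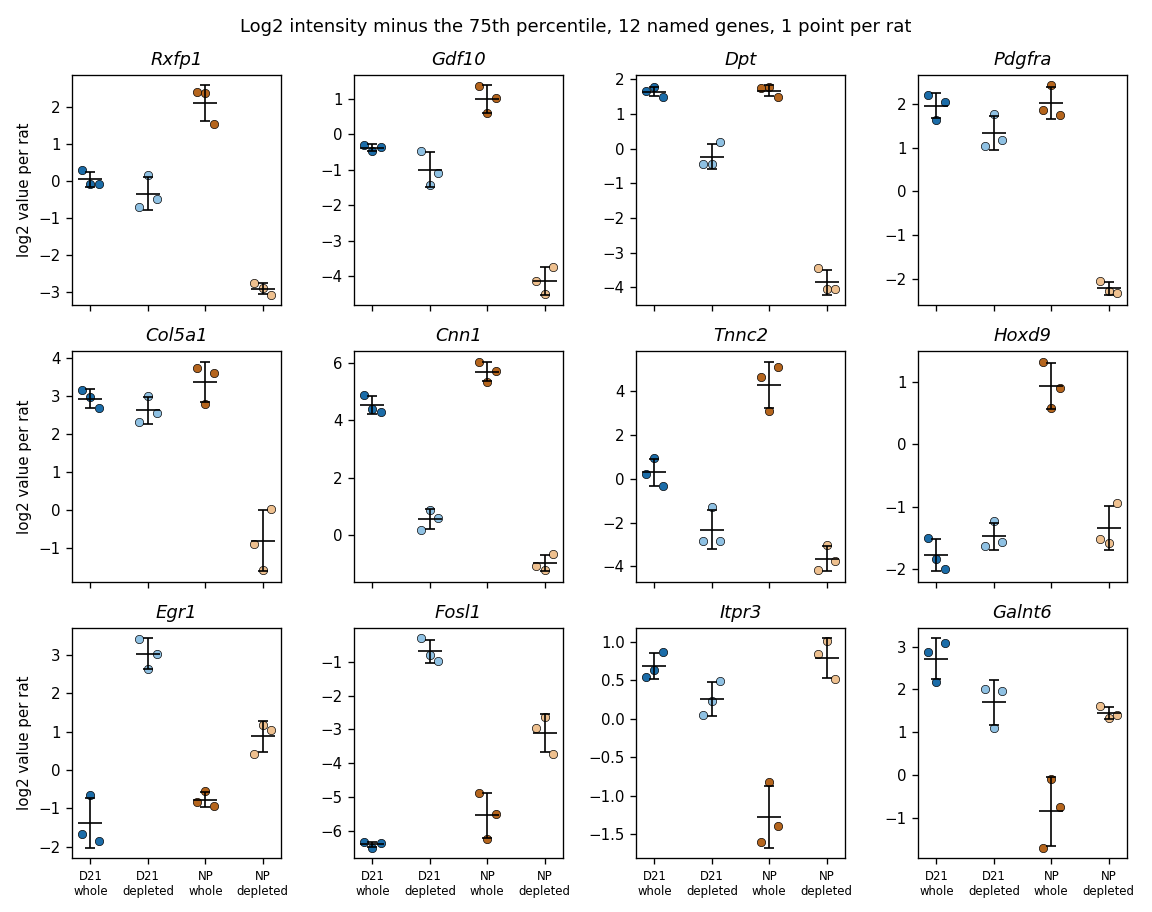
Log2 level of 12 named genes in each rat (points), with the mean and SD of 3 rats (bar and whiskers), by group. Pdgfra and Col5a1 are low in NP depleted rats, Hoxd9 and Tnnc2 are high in NP whole rats, Egr1 and Fosl1 are highest in D21 depleted rats, and Itpr3 and Galnt6 are lowest in NP whole rats.

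Smooth muscle genes were lower in depleted cervix in both states. The difference was called for 14 of 20 in D21 and 20 of 20 in NP rats, against 1693 and 2286 of all 14572 genes. Of 22 listed, 20 were tested, 20 had a negative interaction and 5 were called, with a median of -1.55. The median whole minus depleted difference was 1.89 in D21 and 3.85 in NP rats. Cnn1, calponin 1, an actin-binding protein of contractile smooth muscle, was at 4.88, 4.41 and 4.29 in D21 whole, 0.20, 0.87 and 0.62 in D21 depleted, 6.02, 5.34 and 5.71 in NP whole, and -1.05, -1.19 and -0.66 in NP depleted rats. No group overlapped with another: NP whole was above D21 whole, and NP depleted below D21 depleted cervix. The interaction was -2.69 ± 0.40 (SE, adjusted p = 0.00794 from limma), with -1.16 for pregnancy in whole and 1.53 in depleted cervix (adjusted p = 0.0391 and 0.012).

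Mylk, the kinase that starts contraction, and Des, the intermediate filament desmin, had interactions of -3.40 ± 0.61 and -3.27 ± 0.61 (SE, adjusted p = 0.0177 and 0.0215). These calls held in 8 and 7 of the 12 fits that left out 1 rat, against 12 of 12 for Cnn1. Both were lost without D21 whole rat 6 or 7, NP whole rat 8 or NP depleted rat 5, and Des also without NP whole rat 10, while the values ran from -4.00 to -3.06 for Mylk and from -3.77 to -2.73 for Des. Acta2 and Actg2, smooth muscle actins, were called at -2.79 and -3.89, and the call of Acta2 held in 3 of the 12 fits. Myh11, the smooth muscle myosin heavy chain, was not, at -0.79 (adjusted p = 0.285). A further probe of Mylk gave -1.08, and no smooth muscle gene was called with slide as a block (list median -1.71). Without D21 depleted rat 4, 12 were called, and without D21 whole rat 7, 1.

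Skeletal muscle genes and some Hox genes were set apart by NP whole cervix. Of 15 skeletal muscle genes listed, 8 were tested and 6 were called negative, with a median of -2.97. Of the 8, 1 was well above background on all 12 arrays, so that the others could pass the filter through a single high group, and their count is a description. The mean level of the 8 was -0.33 to 0.25 in NP whole rats, -2.60 to -2.28 in D21 whole, -3.69 to -2.84 in D21 depleted and -4.23 to -3.79 in NP depleted rats. Tnnc2, fast troponin C, was at 0.23, 0.95 and -0.31 in D21 whole, -2.83, -1.31 and -2.84 in D21 depleted, 4.64, 3.12 and 5.13 in NP whole, and -4.17, -3.04 and -3.74 in NP depleted rats, with an interaction of -5.33 ± 0.82 (SE, adjusted p = 0.00979 from limma). The 3 NP whole rats were above all others. With low signals raised, 2 genes of the list were called and the median was -2.23, and without D21 whole rat 7, 1 was called.

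Of 31 Hox genes listed, 15 were tested and 4 were called negative, all of them posterior members (Hoxd9, Hoxa10, Hoxa11 and Hoxa13; Hoxd10 was at -2.57), while the list median was 0.54. Hoxd9 was at -1.50, -1.84 and -2.00 in D21 whole, -1.63, -1.23 and -1.57 in D21 depleted, 1.32, 0.58 and 0.90 in NP whole, and -1.52, -1.58 and -0.94 in NP depleted rats. It was higher in NP whole rats, and the other 3 groups overlapped. Its interaction was -2.58 ± 0.39 (SE, adjusted p = 0.00874). Hoxa11, required for uterine development, was called at -4.57 ± 0.70 (SE, adjusted p = 0.00979). Its means were 2.29 ± 0.59 in NP whole, -0.27 ± 0.12 in D21 whole, -1.23 ± 0.20 in D21 depleted and -3.24 ± 1.20 in NP depleted cervix (SD, n = 3). With slide as a block, the calls of Hoxd9, Hoxa10 and Hoxa11 were lost (limma adjusted p = 0.101, 0.121 and 0.139). That of Hoxa13 held with slide as a block (0.0292), and in 5 of the 12 fits that left out 1 rat. Tested Hoxb and Hoxc members had positive values, from 0.54 for Hoxb7 to 2.48 for Hoxc6, and none of them was called. The skeletal muscle list was highest in the same 3 NP whole rats, and its part in the Hox result was not tested.

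Immediate-early factors are made within minutes of a stimulus, and most of those listed are transcription factors. Of 23 tested, 17 were called higher in depleted than in whole cervix in D21 and 16 in NP rats. Over all 14572 genes, 1500 and 2133 were called higher. Median whole minus depleted differences of the list were -2.12 in D21 and -1.77 in NP rats. Of 26 listed, 3 were called negative and 0 positive, and the list median of -0.27 was 0.04 over the members well above background on all 12 arrays. There were 5 negative and 1 positive calls without D21 depleted rat 4, beside 1322 and 1300 of all 14572 genes. Without D21 whole rat 7 there was 1 negative call. Egr1, Fosl1 and Egr4 were the 3 called. Their sequences upstream of the start of the gene, and that of Mylk of the smooth muscle list, are given because promoters of both kinds of gene can hold CArG boxes, the site bound by serum response factor. They are 250 bases each on the strand of the gene, from RefSeq (GRCr8), at chr18:26736828-26737077 (Egr1), chr1:212183635-212183884 (Fosl1), chr4:119607818-119608067 (Egr4, minus strand) and chr11:79498575-79498824 (Mylk, minus strand). All 3 called immediate-early and all 5 called smooth muscle genes were in the table of promoters. Among the called smooth muscle genes Cnn1, not Mylk, had the smallest adjusted p (0.00794 against 0.0177 from limma). Of Cnn1, Mylk and Des, only Mylk held a match to a motif searched, and that match was not a CArG box. Capitals mark every match, on either strand, to the CArG box, to the CREB site TGACGTCA, to the AP-1 site TGANTCA, to the TATA box TATAAA or to the Egr site GCGNGGGCG.
Egr1: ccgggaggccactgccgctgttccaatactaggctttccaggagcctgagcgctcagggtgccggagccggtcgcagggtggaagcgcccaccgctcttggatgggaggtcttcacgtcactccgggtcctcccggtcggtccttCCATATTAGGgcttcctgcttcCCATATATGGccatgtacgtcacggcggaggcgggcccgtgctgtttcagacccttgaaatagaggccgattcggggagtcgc
Fosl1: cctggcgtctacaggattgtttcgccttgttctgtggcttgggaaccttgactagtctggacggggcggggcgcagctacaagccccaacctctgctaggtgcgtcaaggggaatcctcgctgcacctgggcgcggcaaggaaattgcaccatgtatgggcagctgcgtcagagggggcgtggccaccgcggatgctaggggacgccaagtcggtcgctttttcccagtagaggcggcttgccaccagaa
Egr4: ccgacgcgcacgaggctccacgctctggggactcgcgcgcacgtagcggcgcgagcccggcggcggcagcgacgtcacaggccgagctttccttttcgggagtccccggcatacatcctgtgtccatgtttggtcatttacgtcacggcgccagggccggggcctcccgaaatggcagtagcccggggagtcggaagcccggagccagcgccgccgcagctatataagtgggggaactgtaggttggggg
Mylk: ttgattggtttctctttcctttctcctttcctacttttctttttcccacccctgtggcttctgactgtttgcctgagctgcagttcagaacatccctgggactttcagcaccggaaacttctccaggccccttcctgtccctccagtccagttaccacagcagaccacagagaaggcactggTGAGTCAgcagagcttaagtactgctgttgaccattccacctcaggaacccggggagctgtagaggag
The Egr1 sequence held 2 CArG boxes, CCATATTAGG and CCATATATGG, and that of Mylk held TGAGTCA, a match to TGANTCA. Among the called genes not printed, Actg2 held 1 match to TGANTCA. No motif searched was found in these windows of Fosl1, Egr4, Cnn1, Des or Acta2. Over 27457 genes with a sequence, 1.62% held a CArG box, 1.78% TGACGTCA, 6.99% TGANTCA, 14.1% TATAAA and 4.79% GCGNGGGCG.

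Egr1 was at -1.66, -0.65 and -1.84 in D21 whole, 3.42, 2.62 and 3.03 in D21 depleted, -0.84, -0.56 and -0.93 in NP whole, and 0.42, 1.16 and 1.05 in NP depleted rats. Whole groups overlapped, and D21 depleted rats were above NP depleted rats. Depleted cervix was higher by 4.41 in D21 and by 1.65 in NP rats, or -4.41 and -1.65 as whole minus depleted (adjusted p = 3.32e-05 and 0.0046), and the interaction was -2.75 ± 0.49 (SE, adjusted p = 0.0178 from limma). A further probe of Egr1 gave -1.85. The call was lost without D21 whole rat 5 or rat 7, where the adjusted p reached 0.0637. It was also lost with slide as a block (adjusted p = 0.184), with normexp and without the background filter. No immediate-early gene was called with slide as a block. Fosl1, an AP-1 subunit, was well above background on 0 of the 6 whole arrays. Its signal in depleted cervix exceeded that of whole cervix at least 12-fold in D21 and at least 1.89-fold in NP rats (adjusted p = 1.12e-05 and 0.000575). Egr4 was at least 10.8-fold and 1.11-fold higher (adjusted p = 0.000157 and 0.0433). With low signals raised, the interaction of Fosl1 was -2.40 (adjusted p = 0.0527) in place of -3.27 (0.0111), and that of Egr4 -3.15 (0.0417) in place of -3.68 (0.0297). Fos ran the other way at 2.26 (adjusted p = 0.0557). Jun was at -0.27, Fosb at -1.09, Atf3 at -0.27 and Nr4a1 at 0.41, none of them called.

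**Figure D5:**
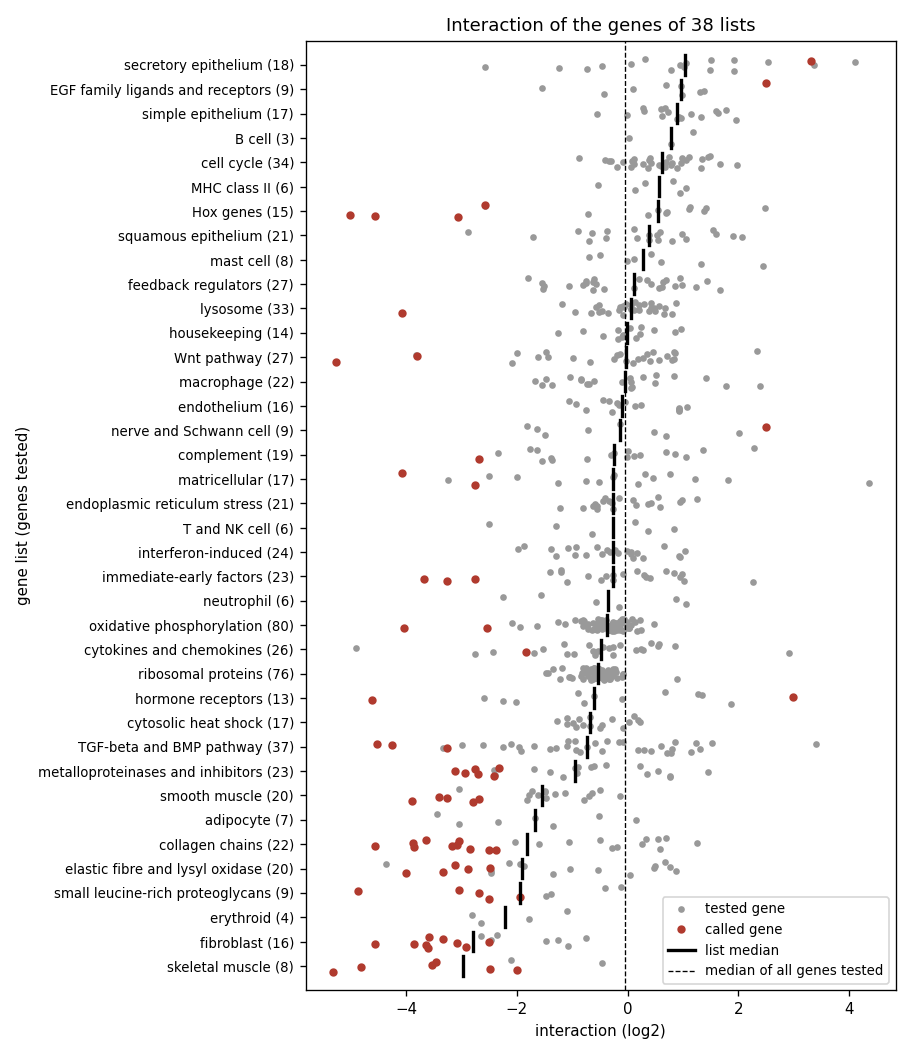
Interaction (log2, horizontal axis) of each tested gene in 38 gene lists (vertical axis, number of genes tested in brackets), with called genes in red, the list median as a bar and the median of all genes tested as a dashed line. The medians of the skeletal muscle and fibroblast lists lie furthest left, at -2.97 and -2.79, and that of secretory epithelium furthest right, at 1.03.

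Positive interactions were fewer and smaller. Among genes well above background on all 12 arrays, 36 were positive and 148 negative. Itpr3, an inositol trisphosphate receptor of the endoplasmic reticulum, was at 0.54, 0.63 and 0.87 in D21 whole, 0.05, 0.23 and 0.49 in D21 depleted, -1.60, -0.82 and -1.39 in NP whole, and 0.84, 1.01 and 0.51 in NP depleted rats. NP whole rats were below all others. The interaction was 2.47 ± 0.36 (SE, adjusted p = 0.00799 from limma). Depleted cervix was higher by 2.05 in NP rats, a whole minus depleted difference of -2.05 (adjusted p = 0.000176). With slide as a block the interaction was 2.47 and was not called (adjusted p = 0.0927).

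Galnt6, which starts O-glycosylation of mucins, was the 1 called gene of 18 secretory epithelial genes tested (22 listed). It was at 2.87, 2.18 and 3.09 in D21 whole, 2.02, 1.09 and 1.97 in D21 depleted, -1.70, -0.10 and -0.75 in NP whole, and 1.60, 1.32 and 1.41 in NP depleted rats. Its interaction was 3.31 ± 0.58 (SE, adjusted p = 0.0158), and without D21 whole rat 7 the adjusted p was 0.0625. Ttc7a had an interaction of 2.62 ± 0.45 (SE, adjusted p = 0.0146). Gab1, a docking protein of receptor tyrosine kinases, was at 3.30 ± 0.46 (SE, adjusted p = 0.00681), but NP whole arrays gave no signal well above background, and with low signals raised it was 1.97 (adjusted p = 0.0594). Erbb3, the neuregulin receptor, at 2.50, Capn5 at 3.22, the epithelial splicing regulator Esrp2 at 2.93 and the collagen receptor Ddr1 at 2.57 were called with adjusted p-values of 0.0263, 0.0311, 0.0419 and 0.0484. Each of these 4 calls held in at most 4 of the 12 fits that left out 1 rat. With slide as a block in limma, these calls and those of Galnt6, Ttc7a and Gab1 were all lost. Adjusted p-values were 0.132 for Galnt6 and Ttc7a, 0.0826 for Gab1, 0.216 for Erbb3, 0.128 for Capn5, 0.208 for Esrp2 and 0.129 for Ddr1.

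Genes of simple epithelium had positive values without a call. Of 17 listed and tested, 15 had a positive value and 0 were called by limma (5 at an unadjusted p below 0.05), with a median of 0.89. Over all 14572 genes, 1175 positive and 1557 negative ones reached that unadjusted level. Leaving out D21 depleted rat 4 gave 3 positive calls, beside 1300 of all 14572 genes. The mean level of the list was 1.06 to 1.90 in NP whole rats, below the 2.96 to 3.08 of D21 whole, 3.27 to 3.67 of D21 depleted and 2.52 to 3.25 of NP depleted rats. Epcam, an adhesion protein of epithelia, had an interaction of 1.95 ± 0.52 (SE, adjusted p = 0.0787) and Esrp1 of 1.63 ± 0.44 (SE, adjusted p = 0.0806). The part of this list in the positive calls was not tested. Squamous epithelial genes varied within groups, with list means from 0.49 to 3.50 among the NP whole rats, and 0 of 21 were called (2 at an unadjusted p below 0.05).

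Genes of Mφs themselves were not called. Of 24 listed, 22 were tested, 11 had a positive and 11 a negative value, 0 were called by limma (1 at an unadjusted p below 0.05), and the median was -0.04. Of all 14572 genes, 1175 positive and 1557 negative ones reached that unadjusted level. The mean level of the list was 1.34 to 1.46 in D21 whole, 0.67 to 1.49 in NP whole, -2.81 to -2.12 in D21 depleted and -3.24 to -2.71 in NP depleted rats. Its median was not stable to the processing, at -1.00 with normexp background correction and -0.62 with slide as a block. Cd163, a scavenger receptor of resident Mφs, was at 0.53, 0.27 and 0.71 in D21 whole and -3.78, -2.64 and -2.88 in NP whole rats, a pregnancy difference of 3.61 (adjusted p = 0.00502). Its interaction was 2.39 ± 0.71 (SE, adjusted p = 0.109), and NP depleted arrays gave no signal well above background. C1qb had an interaction of -1.36 ± 0.63 (SE, adjusted p = 0.276). Without D21 depleted rat 4, 3 Mφ genes were called negative, beside 1322 of all 14572 genes.

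Other cell types and common genes gave few calls. Their counts at an unadjusted limma p below 0.05 stand beside 1175 positive and 1557 negative of all 14572 genes. Of 16 endothelial genes 0 were called (1 at an unadjusted p below 0.05) with a median of -0.11, and of 14 housekeeping genes 0 (0 at that level) with a median of -0.02. The 6 MHC class II genes tested had a median of 0.57, the 8 of mast cells 0.27 and the 6 of T and NK cells -0.26, with 0 called in each (0, 1 and 1 at an unadjusted p below 0.05). The direction of the first pair was not stable, at -0.70 and -0.62 with normexp and -0.36 and -0.24 within slides 4 and 1. Adipocyte genes had a median of -1.67 over 7 tested, with 0 called (4 at that level). Ribosomal protein genes had a narrow shift, negative in 75 of 76 with a median of -0.53 and 0 called (6 at that level), and on the arrays of scan day 3 alone their median was -0.02. Without D21 depleted rat 4, 14 of them were called negative, beside 1322 of all 14572 genes. The 4 erythroid genes tested had a median of -2.22 with 0 called (0 at that level), and the list mean ranged from -0.87 to 3.95 among the 3 D21 depleted rats, lowest in rat 4.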

How the data were processed

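Cervix cells of 12 rats, 3 in each of 4 groups, were measured on 1-colour Agilent rat arrays, 1 rat per array. The authors scanned the arrays and deposited spot intensities from Feature Extraction 9.5.3.1, with background subtracted and detrended. They also deposited a table of ratios, in which intensities were scaled to the array's 75th percentile, used here as an alternative. Control spots and outlier spots were left out, spots of a probe were averaged, and log2 processed intensities minus the 75th percentile of each array were taken. Each gene was represented by its brightest probe. Genes passed if well above background on all 3 arrays of a group, a filter that a gene can pass through its highest group alone.

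The 4 groups were fitted together with limma 3.58.1 (R 4.3.3), which was tested on simulated data, and p-values were adjusted by Benjamini and Hochberg over 14572 genes. A call is an adjusted p below 0.05. Rats are biological replicates, and their number limits the precision. Alternatives covered background correction (normexp), normalization, filters, probes, array weights, slide and scan day, the authors' table, the methods' t-test, and leaving out each rat. Low signals raised means signals set to at least the lowest signal well above background.

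Gene lists and members were chosen with earlier results of these data known. Genes were named by fixed rules: the called genes with the largest interactions (10 in each direction among those well above background on all 12 arrays, 6 among the others), up to 4 called members of each list with the smallest adjusted p, up to 2 members of lists without a call, and 4 checks of the separation. Not all genes that these rules gave are described above. Among the largest left out were Tekt3 at -5.75, Zp2 at -5.74, Tmem119 at -5.06, Igf1 at -4.66 and Celsr1 at 3.39. Other list members were named after their values were seen. Gene names are those of the array or RefSeq, and 57.1% of 30367 probes matched RefSeq. Probe positions are on rn4 from the array files. Promoter sequences are from RefSeq (GRCr8).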

Additional observations from a re-analysis of the deposited data

Results flagged for a closer look

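The interaction is itself a difference between the effects of the separation in D21 and in NP rats, and it passed limma's adjusted threshold for 64 genes in the positive and 286 in the negative direction. For 123 of 14572 genes (0.844%), whole and depleted rats did not overlap in either state and lay in opposite order in D21 and NP rats, and 31 of the 123 were called, 18 positive and 13 negative. Col27a1 was among the negative genes, with an interaction of -3.17, and was well above background on 7 of the 12 arrays. Of the genes named by the fixed rules, 6 positive ones were among the 31, with whole above depleted cervix in D21 rats and below it in NP rats. Their interactions were 2.47 for Itpr3, 2.62 for Ttc7a, 3.31 for Galnt6, 2.50 for Erbb3, 3.22 for Capn5 and 3.02 for Sdr42e1. Capn5 alone of the 6 passed the threshold in each state, with whole minus depleted differences of 1.79 for D21 and -1.43 for NP cervix (adjusted p = 0.0228 and 0.0378 from limma). Sdr42e1 was well above background on 9 of the 12 arrays. None of the 6 was called with slide as a block.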

How the results depend on the processing

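No paired analysis was possible because only D21 whole and NP depleted cervix share rat numbers, those rats are different animals, and the interaction cannot be estimated with the number as a block. Positive and negative calls numbered 64 and 286. They numbered 356 and 728 at an unadjusted p under 0.01 and 2-fold or more, 0 and 0 with the methods' t-test after adjustment (732 and 1058 at an unadjusted p below 0.05, 117 and 306 at an unadjusted p under 0.01 and 2-fold or more, the threshold of the Methods), 4 and 48 with normexp, 118 and 338 with quantile normalization, 22 and 168 with low signals raised, 4 and 99 without a filter, 37 and 148 with genes well above background on all 12 arrays, 1405 and 1526 with array weights, 5 and 50 with slide as a block, and 6 and 58 on scan day 3 alone. Leaving out 1 rat gave 4 to 1300 positive and 99 to 1322 negative calls, lowest without D21 whole rat 7 and highest without D21 depleted rat 4. The cause was not tested.

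The median of the Mφ list was -1.00 with normexp, -0.52 with array weights, -0.62 with slide as a block, -1.31 within slides 4 and 1, and -0.49 to 0.12 without 1 rat. That of the fibroblast list was -2.31 with normexp, -3.15 with slide and -3.12 with scan day as a block, -3.14 within slides 4 and 1, and -3.07 to -2.60 without 1 rat. For collagen chains it was -2.38 with genes well above background on all arrays, -1.45 with the mean of probes, -2.22 with slide as a block, -1.49 on scan day 3, -2.96 within slides 4 and 1, -1.51 within slides 4 and 3, and -2.18 to -1.48 without 1 rat. The smooth muscle median was -2.20 within slides 4 and 1 and -1.85 to -1.28 without 1 rat. The skeletal muscle median was -1.90 with normexp, -2.23 with low signals raised, -2.50 with the mean of probes, -3.41 within slides 4 and 1, and -3.11 to -2.60 without 1 rat. The comparisons within slides were chosen after seeing the data.

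Of 73 named genes called, 33 were called without each rat in turn, 12 with slide as a block and 9 on scan day 3 alone, and 0 with the methods' t-test after adjustment. Low signals limit genes not well above background in a group.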

Other observations

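Of the lists not described above, oxidative phosphorylation genes had 2 negative calls of 80 tested with a median of -0.37, and the called genes were Cox6a2 and Cox4i2, tissue-restricted subunits of cytochrome c oxidase, whose calls held in 3 and 2 of the 12 fits that left out 1 rat. Without D21 depleted rat 4, 7 of the 80 were called negative, a share close to that of all genes (1322 of 14572). Cox6a2, the form of heart and skeletal muscle, was at least 43.8-fold higher in NP whole than in NP depleted cervix (adjusted p = 2.82e-05 from limma), in the group where the skeletal muscle list was highest. Cell cycle genes had positive values in 28 of 34 with a median of 0.63, which was 0.03 with slide as a block and -0.15 within slides 4 and 3, and cytosolic heat shock genes negative values in 13 of 17 with a median of -0.68, with 0 called in each by limma (1 and 4 at an unadjusted p below 0.05). Among 26 cytokine and chemokine genes the stromal chemokine Cxcl12 was called negative, and among 19 complement genes C1r, with list medians of -0.48 and -0.25. The call of Cxcl12 held in 2 of the 12 fits that left out 1 rat and that of C1r in 12. Without D21 depleted rat 4, 3 cytokine and 5 complement genes were called negative, beside 1322 of all 14572 genes. Sparc and Smoc2 were called negative among 17 matricellular genes, beside a list median of -0.26, and their calls held in 2 and 3 of the 12 fits. With slide as a block, the calls of Sparc, Smoc2, Cxcl12 and C1r were lost (adjusted p = 0.249, 0.187, 0.302 and 0.09 from limma).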
